A study of Mus musculus with 6 samples.

Results

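Igfbp4, Nsg2, Dapl1 and Treml2 are 4 of the 28914 genes measured by RNA sequencing in splenic CD4 T cells, sorted as a whole population, of NOD mice, which are prone to autoimmune diabetes. They are genes known from naive T cells and were chosen by their FPKM values (fragments scaled to gene length and library size), which were much lower in the libraries with raised Blimp-1 than in the controls. That contrast is therefore described here and not tested. The mice were 12 weeks old, and the T cell receptor was not stimulated after sorting. The 6 libraries form 3 groups of 2. WT libraries are controls of wild-type genotype, CKO libraries come from CD4 T cells labelled Blimp-1-deficient (genotype Blimp1 knockout), and BTg libraries from CD4 T cells labelled as overexpressing Blimp-1. The labels name neither the Cre driver or deleted exons of the CKO nor the promoter of the BTg transgene. Nothing in them tells whether replicate libraries represent different animals, and the spread behind each p-value may be technical.

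Blimp-1, encoded by Prdm1, is a zinc-finger repressor that accumulates in T cells as they leave the naive state. Naive CD4 T cells circulate through lymphoid organs and carry a set of transcripts, among them the lymph node homing receptor Ccr7, that decline on activation. Igfbp4 encodes a secreted protein that binds insulin-like growth factors. Nsg2 encodes a membrane protein of endosomes and the Golgi, best known from neurons. Dapl1 encodes a small intracellular protein related to death-associated protein. Treml2 encodes a cell surface receptor of the TREM family that is also made by B cells and myeloid cells. By these roles only Treml2 is a surface receptor, so the 4 genes are a group by their pattern in these libraries and not by location in the cell.

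The sequence just upstream of each gene is shown because the 4 transcripts were low in the same libraries and because Blimp-1 binds DNA at sites built around GAAAG. RefSeq's GRCm38.p6 table matched 3 of the 4 genes. The 250 bases before the annotated start are given 5′ to 3′ on the plus strand, with GAAAG and its reverse complement CTTTC in capitals. The Igfbp4 window is chr11:99040994-99041243, the Nsg2 window (the first of 2 annotated starts) is chr11:32000169-32000418, and the Dapl1 window is chr2:59484403-59484652.
Igfbp4: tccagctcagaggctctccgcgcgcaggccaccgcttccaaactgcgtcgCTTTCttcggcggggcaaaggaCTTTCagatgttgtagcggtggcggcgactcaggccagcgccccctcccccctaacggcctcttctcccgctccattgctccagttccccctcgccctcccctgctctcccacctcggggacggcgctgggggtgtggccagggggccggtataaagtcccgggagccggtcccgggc
Nsg2: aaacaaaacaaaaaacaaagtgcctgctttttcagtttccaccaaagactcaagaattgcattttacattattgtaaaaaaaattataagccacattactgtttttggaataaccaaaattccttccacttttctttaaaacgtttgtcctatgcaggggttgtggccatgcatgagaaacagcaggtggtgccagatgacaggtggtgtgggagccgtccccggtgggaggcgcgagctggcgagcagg
Dapl1: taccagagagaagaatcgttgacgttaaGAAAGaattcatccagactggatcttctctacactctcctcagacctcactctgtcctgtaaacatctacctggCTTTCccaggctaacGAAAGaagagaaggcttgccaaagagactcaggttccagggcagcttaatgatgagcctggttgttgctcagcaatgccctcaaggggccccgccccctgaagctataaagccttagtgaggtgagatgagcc
The Igfbp4 window held 2 matches, both as CTTTC, the Dapl1 window 3 and the Nsg2 window 0. Of 32851 such windows in the table, on both strands, 51.5% held at least 1 match. At least 2 matches were found in 18.3% and at least 3 in 5.13%. The longer form AGNGAAAG, which contains GAAAG, was found in 0 of the 3 windows and in 7.3% of all windows. These matches describe letters only.

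Prdm1 checked the labels. It stood at 0.458 and 0.628 FPKM in WT, 0.849 and 0.669 in CKO, and 19.6 and 30.1 in BTg. The gene length behind the deposited FPKM includes introns. The CKO libraries were not lower than WT. A value over the whole gene need not show a deletion of some exons, so this checks the BTg label only, and a direction drawn from the libraries labelled CKO rests on their label. In the libraries' CD4 check, Cd4 stood between 53.8 and 103.5 FPKM and Cd3e between 37 and 100.3. Cd8a did not exceed 0.13 FPKM and the B cell marker Cd79a stood between 1.86 and 10 FPKM. Erythroid markers summed to 106.1 FPKM in WT replicate 1 and 1144 in WT replicate 2, and cell cycle markers to 65.1 and 261.4. The WT pair was thus not alike, and the part of this in its values was not tested. CKO replicate 1 stood apart in its neutrophil markers. Its 10 neutrophil markers summed to 7165 FPKM, against 29 to 165.2 in the other 5 libraries, and its 11 CD4 T cell markers summed to 1252 FPKM, the lowest of the 6, against 1471 to 2530. By group mean, all 10 neutrophil markers were higher in CKO than in WT and lower in BTg than in WT, where they summed to 48.9 and 130 FPKM, with 0 called in each comparison. The B cell markers summed to 6.49 and 11.4 FPKM in WT, 23.9 and 12.4 in CKO, and 5.74 and 7.25 in BTg. Plasma cell markers summed to 162 and 162.4 FPKM in WT, 951.5 and 251.5 in CKO, and 139.4 and 92.5 in BTg. The part of plasma cells in the Prdm1 values was not tested.

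Igfbp4 (ENSMUSG00000017493, chromosome 11, 99041244 to 99054392 on GRCm38, plus strand) stood at 64.4 and 60.6 FPKM in WT, 39.1 and 57.8 in CKO, and 1.87 and 1.48 in BTg. Both BTg libraries lay far below the other 4, and both CKO libraries lay below both WT libraries. The WT mean was 37.4-fold the BTg mean, from 15910 and 389 reads in all. The log2 difference of BTg against WT, on the log2(FPKM + 1) scale, was -4.57 (SE 0.29), the most negative of 10798 genes tested. The gene was chosen for this contrast, and the rank holds for the deposited FPKM only. Per exon length Dapl1 lay lower, at -6.47 against -4.82 for Igfbp4.

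Nsg2 (ENSMUSG00000020297, chromosome 11, 32000463 to 32059202, plus strand) lies on the same chromosome. It stood at 5.99 and 4.57 FPKM in WT, 3.41 and 5.73 in CKO, and 0.372 and 0.366 in BTg. The WT and CKO libraries overlapped, with CKO replicate 1 the lowest of those 4 and WT replicate 1 the highest, and the BTg pair was nearly equal. The WT mean was 14.3-fold the BTg mean, from 5803 and 367 reads. The log2 difference was -2.19 (SE 0.27), a smaller number than the fold implies because the BTg values lie below the added 1.

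Dapl1 (ENSMUSG00000026989, chromosome 2, 59484653 to 59505020, plus strand) had a single read in the BTg libraries. It stood at 5.45 and 1.72 FPKM in WT, 0.378 and 1.29 in CKO, and 0 and 0.00328 in BTg. The reads were 1972 and 535 in WT, 137 and 465 in CKO, and 0 and 1 in BTg. The groups did not overlap, yet the WT pair differed 3.16-fold and the CKO pair 3.41-fold, a wider spread than for any of the other 3 genes. Per read counted, WT held 2292 times the BTg level, with an exact 95% interval of 411 to 90580 that covers counting error only. In BTg replicate 1 a count of 0 among 15254255 reads allows up to 0.00966 FPKM (3 reads). The log2 difference was -2.06 (SE 0.46), and it depends on the added 1.

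Treml2 (ENSMUSG00000071068, chromosome 17, 48299498 to 48312533, plus strand) had the smallest fold of the 4 genes. It stood at 12.1 and 10.6 FPKM in WT, 10.1 and 9.18 in CKO, and 2.7 and 2.36 in BTg. The 3 groups did not overlap, although the 4 WT and CKO libraries lay close together. The WT mean was 4.47-fold the BTg mean, from 3064 and 624 reads, so BTg kept 22.4% of the WT level. The log2 difference was -1.80 (SE 0.21). Myeloid and B cells also make Treml2, and the part of the neutrophil and B cell RNA described above in its values was not tested.

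**Figure D1:**
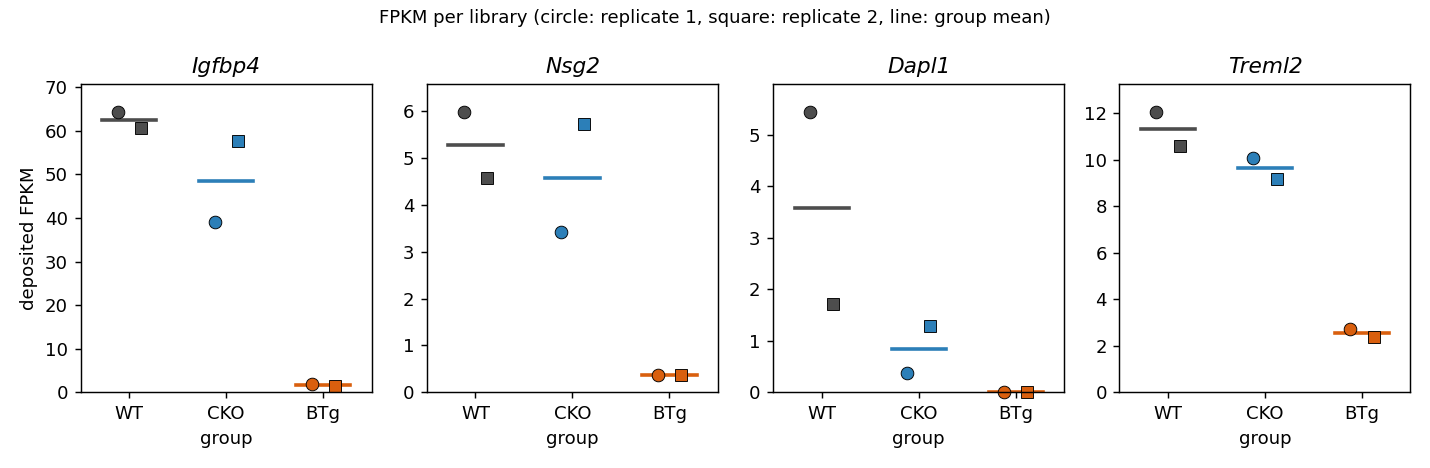
Deposited FPKM (y axis, from 0 in each panel) of Igfbp4, Nsg2, Dapl1 and Treml2 in the 2 libraries of each group (x axis); points are libraries and lines are group means. Both BTg libraries sit below the other 4 in every panel, and Dapl1 also differs between the WT libraries, at 5.45 and 1.72 FPKM.

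All 4 genes had both BTg libraries below both WT libraries, where 10.4% of the 10798 tested genes did. The genes were chosen for this contrast, so nothing is read from that count. Over the whole table limma called 2 genes at adjusted p under 0.05 (0.0185%), Prdm1 and Igfbp4. The Igfbp4 call rests on the values that chose the gene and is no test of it. With the replicate block, quantile normalization, a 0.1 FPKM filter, only the 2 groups compared, or any 1 library left out, 0 genes were called. In bulk RNA, fewer cells that carry a transcript and less transcript per cell cannot be told apart. All 4 genes entered the tests because 2 libraries reached 1 FPKM, and Nsg2 and Dapl1 did so only through WT and CKO, since neither BTg library reached that level.

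Levels of different genes are compared per exon length, since the deposited values divide by a length that includes introns. On that scale the WT levels were 108.8 ± 4.75 (mean ± SD, n = 2) FPKM for Igfbp4, 107.5 ± 79 for Dapl1, 41.8 ± 7.93 for Nsg2 and 18.8 ± 1.75 for Treml2. The Igfbp4 and Dapl1 libraries overlapped. Both Dapl1 values lay above both Nsg2 values, by less than the SD of Dapl1, and both Nsg2 values lay above both Treml2 values. In BTg the order of levels was Treml2 at 4.2 ± 0.399, Nsg2 at 2.92 ± 0.0384, Igfbp4 at 2.91 ± 0.479 and Dapl1 at 0.0492 ± 0.0696 FPKM. The Nsg2 and Igfbp4 libraries overlapped. Treml2, the lowest of the 4 in WT, was thus the highest of the 4 in BTg. In CKO the means were 84.3 ± 23 for Igfbp4, 36.2 ± 13 for Nsg2, 25 ± 19.3 for Dapl1 and 16 ± 1.07 for Treml2. Both Igfbp4 values lay above the others there, and both Nsg2 values above both Treml2 values. Dapl1 overlapped with Nsg2 and with Treml2.

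**Figure D2:**
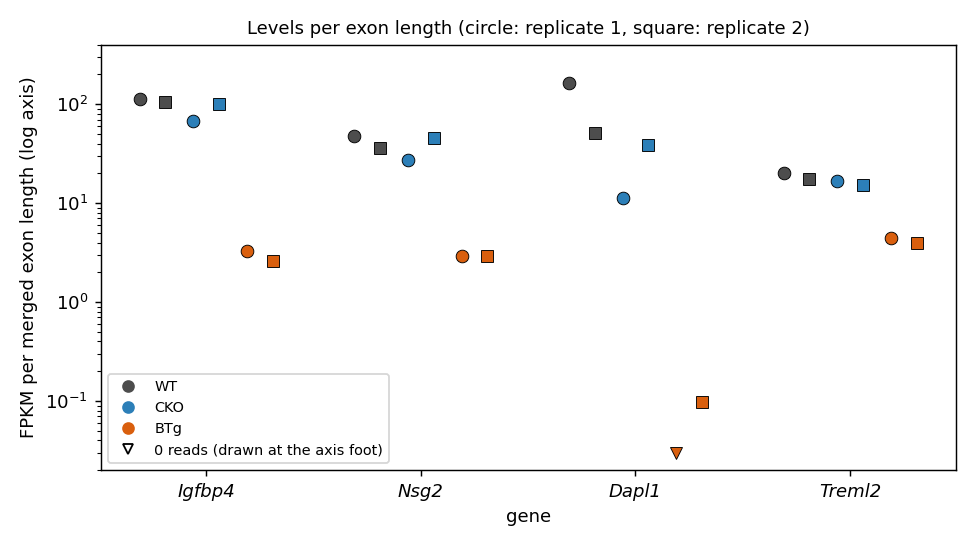
FPKM recomputed per merged exon length (log y axis) for the 4 genes (x axis) in each library; the triangle marks 0 reads. Treml2 is the lowest of the 4 in both WT libraries and the highest in both BTg libraries, at 4.48 and 3.92 FPKM, while Dapl1 drops to 0 and 0.0985.

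The question in the other comparison is what labelled absence of Blimp-1 does to the 4 genes. The libraries labelled CKO were not used to choose the genes, but the WT libraries were, and a gene chosen for being high in WT can look lower in any other group. Against WT, the log2 differences were -0.39 (SE 0.29) for Igfbp4, -0.20 (SE 0.27) for Nsg2, -1.24 (SE 0.46) for Dapl1 and -0.21 (SE 0.21) for Treml2. All 4 had limma adjusted p = 1, and 0 of 10798 genes (0%) were called in this comparison, with 454 at unadjusted p under 0.05 (4.2%). Dapl1 had unadjusted p = 0.0368. Limma voom on recovered reads called 0 of 15927 genes and put Dapl1 at -2.11 (SE 0.76, adjusted p = 0.834). For 3 of the 4 genes (all but Nsg2) both CKO libraries lay below both WT libraries, against 8.96% of tested genes, and these 3 were Igfbp4, Dapl1 and Treml2. The median of the 4 differences was -0.30, and the median over all genes tested was -0.03.

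The CKO libraries did not act alike. Igfbp4 stood at 62.6% of the WT mean in CKO replicate 1 and 92.5% in replicate 2. Nsg2 stood at 64.6% and 108.5%, and Dapl1 at 10.6% and 35.9%. Treml2 went the other way, at 89.1% and 81.1%. CKO replicate 1 is the library with low CD4 T cell and high neutrophil markers, and the part of those cells in these values was not tested. Without it the differences from WT were -0.11 for Igfbp4, 0.11 for Nsg2, -0.87 for Dapl1 and -0.27 for Treml2. The Nsg2 direction thus rests on that library, and 2 of the others shrank. The median of all genes tested also moved, from -0.03 to 0.11, and Nsg2 lay at that median.

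The 4 genes were also set against Cd3d, Cd3e and Cd3g, the CD3 chains of the T cell receptor complex, a comparison added after the values were seen. The 3 chains together summed to 1119 and 675.1 FPKM in WT, 580.4 and 711.2 in CKO, and 1159 and 881 in BTg. The divisor thus differed within WT, and it widens the WT pair of Igfbp4, which stood at 64.4 and 60.6 FPKM before scaling. Per 1000 FPKM of the chains, Igfbp4 stood at 57.6 and 89.7 in WT and 67.4 and 81.2 in CKO, which overlapped. Nsg2 stood at 5.35 and 6.78 in WT and 5.88 and 8.06 in CKO, and Treml2 at 10.8 and 15.7 in WT and 17.4 and 12.9 in CKO. Both overlapped as well. Dapl1 did not overlap, at 4.87 and 2.55 in WT and 0.651 and 1.81 in CKO. With all genes scaled this way, the log2 differences of CKO against WT became 0.041 for Igfbp4, 0.16 for Nsg2 and 0.19 for Treml2, higher in place of lower, and -1.01 for Dapl1. The median of all genes moved to 0.29, and relative to it the 4 lay at -0.25, -0.13, -0.10 and -1.30 in that order. In BTg the ratios to the chains were low, at 1.61 and 1.68 for Igfbp4, 0.321 and 0.415 for Nsg2, 0 and 0.00373 for Dapl1, and 2.33 and 2.68 for Treml2.

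**Figure D3:**
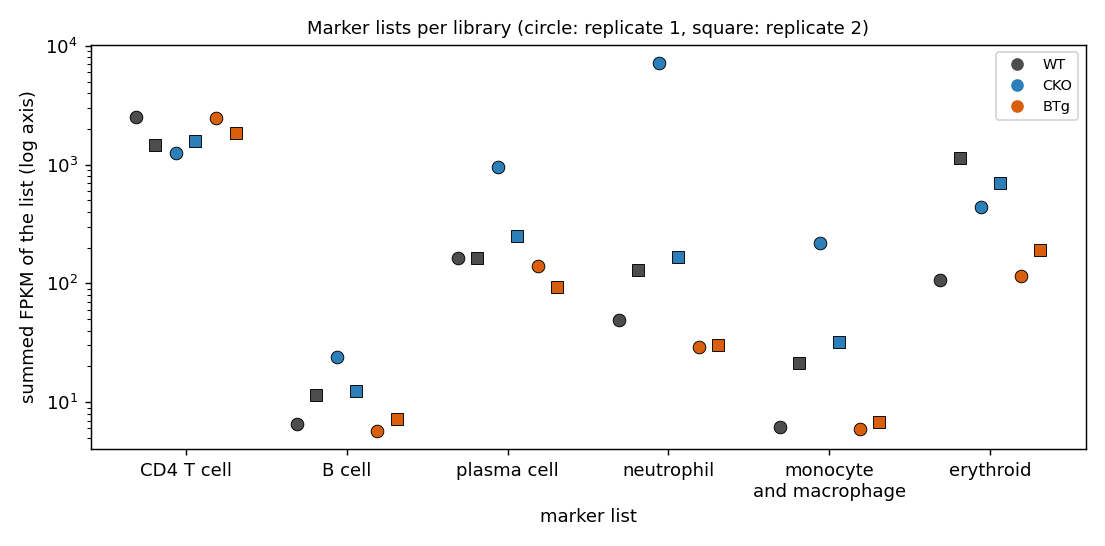
Summed deposited FPKM (log y axis) of 6 marker lists (x axis) in each library. CKO replicate 1 is the highest library for neutrophil markers at 7165 FPKM and the lowest for CD4 T cell markers at 1252 FPKM, while both BTg libraries have neutrophil sums of 29 and 30.3 FPKM.

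The BTg and CKO libraries set raised Blimp-1 against labelled absence of it, again described only, since the BTg libraries chose the genes. The CKO mean was 29-fold the BTg mean for Igfbp4, 12.4-fold for Nsg2 and 3.8-fold for Treml2. Dapl1 was at 511.9 times the BTg level per read, with an exact 95% interval of 91.5 to 20250 that covers counting error only. It rests on 1 BTg read and does not include the 3.41-fold spread of the CKO pair. The log2 differences of BTg against CKO were -4.19, -1.99, -1.59 and -0.83 for Igfbp4, Nsg2, Treml2 and Dapl1. This comparison shares the BTg libraries with the one against WT. Over the whole table limma called 2 genes (0.0185%), again Prdm1 and Igfbp4, and the Igfbp4 call is likewise no test. With the replicate block, quantile normalization, a 0.1 FPKM filter or only the 2 groups compared, 0 genes were called. Both BTg libraries lay below both CKO libraries for all 4 genes and for 21.8% of tested genes. Both BTg libraries lay below all 4 other libraries for each of the 4 genes, as they did for 6.69% of tested genes.

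Other genes of naive T cells were also compared. Of 30 listed, 28 were tested, and in BTg against WT 21 were higher and 7 lower, with a median log2 difference of 0.17, but with scaling to the CD3 chains 13 were higher and 15 lower, with a median of -0.02 where that of all genes was -0.15. Limma called 0 of the 28, with 3 lower at unadjusted p under 0.05, and limma voom called 0. The share of all tested genes that were lower was 45.5%, and their median was 0.02. In CKO against WT 25 of the 28 were lower, with a median of -0.62, where 54.6% of all tested genes were lower. Limma called 0 of these, with 3 lower at unadjusted p under 0.05, and limma voom called 0. Without CKO replicate 1, 22 were lower and the median was -0.09, where 32.5% of all tested genes were lower, with a median of 0.11. With the CD3 scaling 22 were lower and the median was -0.23, where 17% of all tested genes were lower, with a median of 0.29. In BTg against CKO 23 were higher and 5 lower, with 43.9% of all tested genes lower, and the median was 0.70. With the CD3 scaling 18 were higher and 10 lower, with a median of 0.18, where 85.9% of all tested genes were lower, with a median of -0.43. Relative to all genes the list's median was 0.64 on the deposited scale and 0.62 with the CD3 scaling. Without CKO replicate 1 the list's median was 0.29, and that of all genes -0.05. Effector and memory T cell markers (17 genes) summed to 174 and 152.9 FPKM in WT, 381.6 and 267.9 in CKO, and 104.8 and 96.3 in BTg, and their part in these values was not tested.

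Il7r, the interleukin-7 receptor chain, and Id3, an inhibitor of E proteins, were among the listed genes that were lower in BTg than in WT, with log2 differences of -1.23 and -1.10 and limma adjusted p = 1 for each. In BTg Il7r stood at 8.39 and 9.71 FPKM, below the 26.1 and 19.3 of WT. It stood at 9.2 and 19.1 FPKM in CKO, where replicate 1 lay between the BTg values. Id3 stood at 27.8 and 22.9 FPKM in WT, 26.1 and 42.6 in CKO, and 14.7 and 8.54 in BTg, where both libraries lay below the other 4.

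Tcf7 and Lef1 encode transcription factors of naive T cells, and neither passed the test in BTg against WT. Tcf7 stood at 33.6 and 35.6 FPKM in WT, 17.5 and 34 in CKO, and 36.8 and 35.6 in BTg. Lef1 stood at 4.02 and 4.39 FPKM in WT, 0.84 and 2.96 in CKO, and 4.46 and 5.16 in BTg. Ccr7, the receptor that guides cells to lymph nodes, was lower in both other groups, at 43.9 and 35.2 FPKM in WT, 10.5 and 26.2 in CKO, and 25 and 24.5 in BTg. The listed genes with the highest BTg value relative to WT were Als2cl, Tob1 and Rasgrp2, with log2 differences of 0.68, 0.55 and 0.53, also with limma adjusted p = 1 for each. Tob1 is an antiproliferative gene of resting T cells and Rasgrp2 encodes an exchange factor for Rap proteins.

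**Figure D4:**
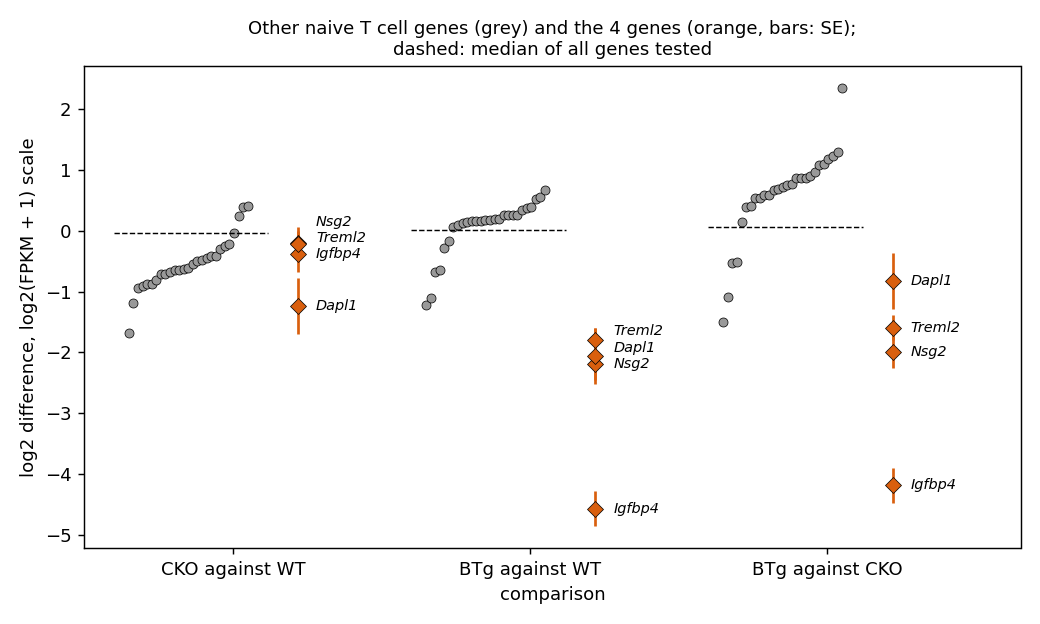
Log2 differences on the log2(FPKM + 1) scale (y axis) of 27 of the 28 other naive T cell genes (grey) and of Igfbp4, Nsg2, Dapl1 and Treml2 (orange, bars are SE) in the 3 comparisons (x axis); dashed lines are medians of all genes tested. In BTg against WT the grey genes have a median of 0.17 (-0.02 with scaling to the CD3 chains), over all 28. The 4 genes lie between -4.57 and -1.80. They were chosen for this contrast, so nothing is read from the gap between grey and orange. The gene not plotted also lies in that range, so the gap is not complete.

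Relatives of the 4 genes were compared from lists. For Igfbp4, the other binding proteins Igfbp3, Igfbp5, Igfbp6, Igfbp7 and Igfbpl1 had at most 36 reads in any library, the most being for Igfbp7 in WT replicate 1, and 0 of them passed the filter. Of 18 genes of the insulin-like growth factor system in the table, 6 were tested; in BTg against WT 3 were higher, 3 lower and 0 called. Igf1r, the receptor for insulin-like growth factor 1, stood at 6.04 and 9.17 FPKM in WT, 11.9 and 12 in CKO, and 6.06 and 8.63 in BTg. Igf2r, a scavenging receptor that also sorts lysosomal enzymes, stood at 53.7 and 59.5, 33.1 and 62.5, and 47.2 and 53 FPKM in the same order. The ligand genes Igf1 and Igf2 did not exceed 0.0167 FPKM.

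Nsg1, the paralogue of Nsg2, had 3 to 13 reads per library, and Caly, a further family member, 1 read in CKO replicate 1 and 0 elsewhere. Of 10 genes of the family and of endosomal sorting, 5 were tested, and 2 were higher, 3 lower and 0 called in BTg against WT. Among them Vps35, a retromer subunit, stood at 14.5 and 11.2 FPKM in WT and 13 and 9.13 in BTg. Dap, the relative of Dapl1, was present in all libraries, at 0.964 and 1.33 FPKM in WT, 1.66 and 1.63 in CKO, and 1.37 and 1.3 in BTg. Its log2 difference in BTg against WT was 0.13 (SE 0.20). Of the 11 genes of Dap and autophagy, 8 were tested, with 5 higher, 3 lower and 0 called.

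The TREM family includes several receptors of myeloid cells. Trem1, Trem2 and Trem3 were highest in CKO replicate 1. Trem3 stood there at 5.63 FPKM and did not exceed 0.143 elsewhere, and Tyrobp, the signalling adaptor of these receptors, stood at 35.6 FPKM there and at 1.5 to 3.54 elsewhere. Treml2 was 10.1 FPKM in that library, between the WT values and the 9.18 of the other CKO library. Per 1000 FPKM of the CD3 chains that library was the highest for Treml2, at 17.4. The part of myeloid cells in these values was not tested. Treml1 and Treml4 stayed at or below 0.138 FPKM. Cd276, proposed as a partner of Treml2, had at most 6 reads in a library. Of the 11 genes of this list 3 were tested, and in BTg against WT 2 were higher, 1 lower and 0 called. In CKO against WT 0 genes of these 4 lists were called either.

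Neighbouring genes were examined within 500 kb, measured between start sites, a window chosen after the data were seen. None of the 4 genes overlaps another annotated gene. Of 35 other tested genes in the 4 windows, 16 were lower in BTg than WT and 4 (11.4%) had both BTg libraries below both WT libraries, against 10.4% of all tested genes. These were Tns4, Ccr7 and Smarce1 near Igfbp4 and Il9r near Nsg2. Tns4 reached 1 FPKM only in the CKO libraries, and Il9r only in WT replicate 2 and the CKO libraries. Both thus entered the tests without a BTg library at that level. Tns4, which encodes the focal adhesion protein tensin-4, lies 11.3 kb past the end of Igfbp4, at chromosome 11, 99065678 to 99089306. It stood at 0.902 and 0.861 FPKM in WT, 1.25 and 1.31 in CKO, and 0.139 and 0.129 in BTg, from 83, 68, 115, 120, 11 and 10 reads. Its WT mean was 6.57-fold the BTg mean. Its log2 difference was -0.73 by limma and -2.69 (SE 0.49) by limma voom on recovered reads, with adjusted p = 1 in each. Top2a, a proliferation gene on the other side of Igfbp4, varied within WT from 29.1 to 93.95 FPKM. No tested neighbour within the window of Dapl1 (2 genes) or Treml2 (5 genes) had non-overlapping lower BTg libraries.

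**Figure D5:**
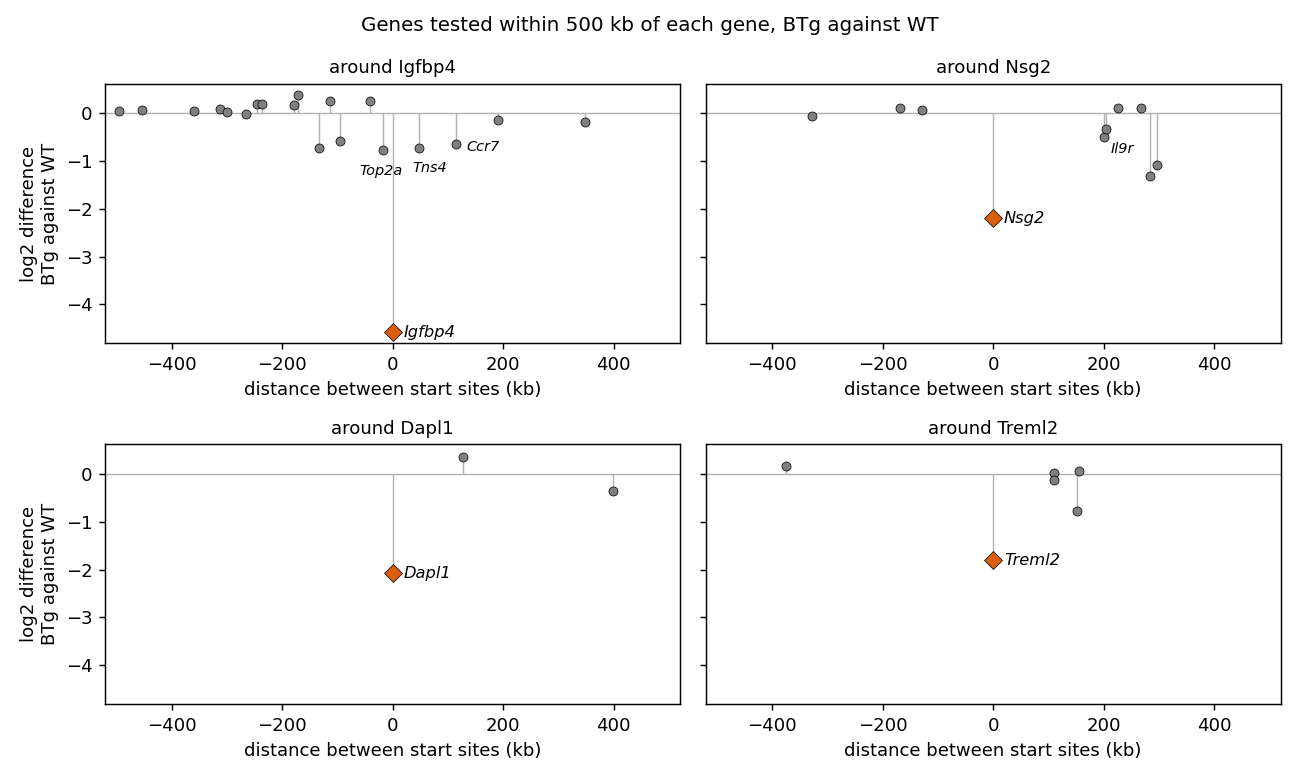
Log2 differences of BTg against WT (y axis) for every tested gene within 500 kb of Igfbp4, Nsg2, Dapl1 and Treml2 (orange), placed by the distance between start sites in kb (x axis). Near Igfbp4, Tns4 and Ccr7 lie at -0.73 and -0.65, and the 2 unlabelled low genes near Nsg2 are the haemoglobin genes Hba-a1 and Hba-a2.

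The genes with the most similar pattern were taken as those with the highest Pearson r of log2(FPKM + 1) over the 6 libraries. They were taken from 2103 tested genes that varied by at least 1 on that scale and reached 2 FPKM in a group mean. The 4 genes, predicted genes, pseudogenes and antigen receptor segments were not among the 2103. Since the BTg libraries are low and the other 4 are not, any gene low in both BTg libraries scores high, and r is given as a description. Pdlim1, a cytoskeletal adaptor with PDZ and LIM domains, came first for Igfbp4 (r = 0.99), Nsg2 (r = 0.97) and Treml2 (r = 0.98). It stood at 2.19 and 2.26 FPKM in WT, 2.31 and 2.25 in CKO, and 0.385 and 0.489 in BTg. WT and CKO libraries thus lay within 0.111 FPKM of each other.

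Plaur, the urokinase receptor, was among the 3 closest to Igfbp4 and Treml2 (r = 0.94 and 0.96). It stood at 2.13 and 2.24 FPKM in WT, 3.07 and 1.65 in CKO, and 0.122 and 0.192 in BTg. Nrn1, encoding neuritin, was among the 3 closest to Nsg2 (r = 0.93), at 2.91 and 1.94 FPKM in WT, 3.09 and 4.12 in CKO, and 0.776 and 0.615 in BTg. For Dapl1 the closest were n-R5s73 (r = 0.98), with only 1 to 9 reads per library, Il7r (r = 0.95) and Cxcr6 (r = 0.93), a chemokine receptor at 15.2 and 7.78 FPKM in WT, 7.19 and 7.18 in CKO, and 5.87 and 4.24 in BTg. Dapl1 shared 0 of its 3 closest genes with the other 3. In BTg against WT, limma adjusted p = 1 for Pdlim1 and for Plaur, with log2 differences of -1.17 and -1.46.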

How the data were processed

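Total RNA (TRIzol) went into NEBNext Ultra libraries, per the labels' protocols. The submitters' processing notes name Trimmomatic 0.38, HISAT2 2.1.0, featureCounts 1.6.0 and GRCm38. Settings, annotation release and strandedness were not given in these sources. The authors deposited FPKM values, 1 column per library. All 28914 identifiers matched GENCODE M21. With the median transcript span (introns included) as length, 100.0% of values above 0 were whole reads within 0.01. Recovered reads numbered 14958458 to 17799091 per library and gave FPKM per merged exon length. Among protein-coding genes the median span was 3.07 times the exon length.

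The 10798 genes reaching 1 FPKM in 2 or more libraries entered 1 limma fit of log2(FPKM + 1) over all 6 libraries (R 4.3.3, limma 3.58.1, eBayes with trend). Calls needed a Benjamini-Hochberg adjusted p under 0.05. Limma voom with TMM factors was run on recovered reads as an alternative. The code was tested on simulated data. The 4 genes, the lists and the rule for named genes were chosen with earlier results of these data known. That rule took the 4 genes, Prdm1, relatives, markers, extremes and key genes of the naive list, and the 3 genes most similar to each of the 4. Neighbouring genes, Vps35, Igf1r, Igf2r and scaling to the CD3 chains were chosen after the values were seen. The values of some genes that the rule names are not reported here.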

Additional observations from a re-analysis of the deposited data

How the results depend on the processing

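Igfbp4, Nsg2, Dapl1 and Treml2 stayed lower in BTg than in WT and CKO under each of the 18 alternatives run. The genes were chosen for low BTg values, so this direction is a description and no test. Several alternatives cannot change a difference of group means, among them other filters, the replicate block and eBayes without trend. The same holds for the fit of only the 2 groups compared. Their median log2 difference of BTg against WT was -2.13, and -4.24 and -2.79 with pseudocounts of 0.1 and 0.5, -4.13 per exon length and -4.57 by voom; leaving out 1 library gave -2.52 to -1.87. Against CKO it was -1.79, and -3.14, -2.12, -3.80 and -4.21 in the same order, -2.24 with CD3 scaling and -1.91 to -1.67 leaving out 1 library. For CKO against WT the median of -0.30 became 0.10 with CD3 scaling (Igfbp4 0.041, Nsg2 0.16, Treml2 0.19) and ranged from -0.58 to -0.19 leaving out 1 library, with Nsg2 from -0.50 to 0.11 (without CKO replicate 1). None of the 4 passed the threshold in CKO against WT under any alternative. With no filter 65, 46 and 81 genes were called in CKO against WT, BTg against WT and BTg against CKO, and with CD3 scaling 168, 10 and 479, where the deposited scale gave 0, 2 and 2. Calls in both BTg comparisons were 0 with a 0.1 FPKM filter, quantile normalization, only the 2 groups compared or the replicate block. Against CKO they were 9 per exon length and 5 by voom. Leaving out 1 library gave 0 to 81 (without CKO replicate 2), 0 to 0 and 0 to 255 (without CKO replicate 2). The causes were not tested. In the replicate check, differences of replicate 1 minus 2 correlated at 0.17 for WT with CKO. The correlations were 0.47 for WT with BTg and 0.46 for CKO with BTg, and 2 numbers do not show that the libraries are paired. The replicate block left the CKO against WT median at -0.30. With 1 library of each number per group it cannot change that median, so nothing on pairing is read from it. Dapl1 in BTg is limited by depth, at 0 and 1 reads.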
